A study of Mus musculus with 15 samples.

Results

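The genes followed here encode 8 intermediate filament proteins, measured in cultured mouse hepatocytes that carried one of the 4 isoforms of the bile acid receptor FXR. They are the keratin genes Krt7, Krt8, Krt18, Krt19, Krt20 and Krt23, the nestin gene Nes and the vimentin gene Vim, 8 of the 18820 genes measured. Each was read by 1 probe set with that gene as its single annotation, and none was dropped for a low value. The genes were listed with earlier results of these data known. Krt19 in particular was chosen by its differences from GFP on these arrays, which lay on opposite sides of the control with and without the insert described next, and Nes had been seen among the largest differences, so the values of both are given as a description without a test. Primary hepatocytes of male C57BL/6J mice were transduced with an adenovirus for human FXRα1, FXRα2, FXRα3 or FXRα4, each with GFP from a separate CMV promoter, or with an adenovirus for GFP alone. All 5 groups were kept in dexamethasone (0.1 µM) and insulin (1 nM) and then without both for the last 24 h, and RNA was taken 36 h after transduction. FXRα1 and FXRα3 carry a short insert beside the DNA-binding domain that FXRα2 and FXRα4 lack, and FXRα3 and FXRα4 have the longer N-terminus. Each group had 3 arrays, and no label names a deletion of the mouse receptor. Whether the replicates are separate animals or cultures is not stated, so a p-value here reflects the spread of these arrays alone, which may be technical.

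Intermediate filaments are the rope-like part of the cytoskeleton. Keratins form obligate pairs of an acidic type I chain (Krt18, Krt19, Krt20, Krt23) and a basic type II chain (Krt7, Krt8), and the mature hepatocyte is known for making the pair of Krt8 and Krt18 alone. Krt19 and Krt7 are the added keratins of bile duct cells and of mesothelium, Krt20 is known from intestinal epithelium, and Krt23 is a less studied type I keratin. Vim and Nes encode filament proteins of mesenchymal and of progenitor or activated stellate cells, and Vim is known to come on when hepatocytes are cultured.

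The values are log2 intensities of a probe set as deposited, and a difference of 1 is a 2-fold change. The median probe set of an array lay between 4.92 and 5.01. As a check on the receptor, the bile salt pump gene Abcb11, a known FXR target, rose in all 4 isoform groups against GFP, by 3.01 ± 0.13 (log2, SE) for FXRα1, 3.36 ± 0.13 for FXRα2, 0.49 ± 0.13 for FXRα3 and 1.87 ± 0.13 for FXRα4 (limma adjusted p from 6.22e-15 to 0.00928). Nr0b2, another known FXR target, rose by 0.40 with FXRα2, fell by 0.46 with FXRα3 and 0.39 with FXRα4 (limma adjusted p = 0.0154, 0.0141 and 0.0198), and was at −0.017 with FXRα1 (limma adjusted p = 0.965). Nr0b2 was dim in every group, with means from 4.19 to 5.05, and the median gene of an array lay at 5.605 or higher. Centring each array on its median gene moved the median difference from GFP by −0.10 for FXRα1, −0.22 for FXRα2, −0.04 for FXRα3 and −0.21 for FXRα4, by −0.12 for FXRα2 against FXRα1 and by −0.17 for FXRα4 against FXRα3. Quantile normalization and centring on the 75th percentile moved it by at most 0.06 in size. Differences smaller than these shifts depend on the scaling. All comparisons with GFP share the same 3 GFP arrays. Keratin genes resemble each other in sequence, and cross-hybridization between their probe sets was not tested.

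Krt19 was higher than GFP with both isoforms that carry the insert and lower with both that lack it. Its log2 value was 9.26, 9.44 and 9.42 on the GFP arrays, 10.66, 10.73 and 10.70 with FXRα1, and 11.12, 11.04 and 11.23 with FXRα3. It was 7.45, 7.54 and 7.66 with FXRα2 and 8.29, 8.29 and 8.75 with FXRα4. No group overlapped another, and the groups ran from FXRα2 through FXRα4, GFP and FXRα1 to FXRα3, with gaps between neighbouring means of 0.89, 0.93, 1.32 and 0.43.

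Against GFP, Krt19 differed by 1.32 ± 0.09 (log2, SE from limma) with FXRα1 and 1.76 ± 0.09 with FXRα3, or 2.50-fold and 3.38-fold higher. The difference was −1.82 ± 0.09 with FXRα2 and −0.93 ± 0.09 with FXRα4, or 3.54-fold and 1.91-fold lower. FXRα2 stood 8.86-fold below FXRα1, and FXRα4 stood 6.45-fold below FXRα3. The longer N-terminus went with a higher Krt19 value on both sides, by 0.43 between FXRα3 and FXRα1 and by 0.89 between FXRα4 and FXRα2. The third FXRα4 array was the highest of its group, and without it the FXRα4 difference from GFP was −1.08 and that from FXRα2 was 0.74.

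The hepatocyte pair, Krt8 and Krt18, stayed within a narrow band at the bright end of the array. For Krt8 the GFP mean was 12.95 ± 0.02 (SD, n = 3), and the isoform means were 12.93 ± 0.01 for FXRα1, 12.93 ± 0.04 for FXRα2, 13.02 ± 0.02 for FXRα3 and 12.93 ± 0.02 for FXRα4. For Krt18 the GFP mean was 12.77 ± 0.03, and the isoform means were 12.81 ± 0.02 for FXRα1, 12.78 ± 0.03 for FXRα2, 12.84 ± 0.01 for FXRα3 and 12.84 ± 0.02 for FXRα4. The FXRα3 arrays of Krt8 lay above those of the other groups. Every pair of neighbouring Krt18 groups overlapped, but the GFP arrays of Krt18 lay just below those of FXRα1, FXRα3 and FXRα4. Neither gene passed the test in any isoform group against GFP (limma adjusted p from 0.0608 to 0.783).

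The 95% intervals give the size that these arrays could still hold. For Krt8 the difference from GFP lay between −0.077 and 0.045 with FXRα2 and between −0.082 and 0.040 with FXRα4, and for Krt18 between −0.046 and 0.074 and between 0.012 and 0.13. Those intervals hold on the deposited scale. With median centring Krt8 differed from GFP by −0.24 with FXRα2 and −0.23 with FXRα4, and both passed. Krt18 turned to −0.21 with FXRα2, which passed, and to −0.14 with FXRα4, which did not. Krt18 passed upward with FXRα4 under quantile normalization (0.10), with every probe set tested (0.072) and without FXRα1 replicate 1 (0.072), and with FXRα3 under array weights (0.077). Krt8 fell by 0.089 ± 0.029 from FXRα3 to FXRα4 (limma adjusted p = 0.0246). That call was lost under 7 of the alternatives. Among them were the fits without FXRα3 replicate 1 (−0.082), FXRα3 replicate 3 (−0.082) or FXRα4 replicate 3 (−0.075), and quantile normalization (−0.028). These probe sets stood near the highest value on any array, 13.85, and whether their signal was saturated was not tested.

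Krt7, the type II chain that accompanies Krt19 in bile ducts, was dim and passed the test in no comparison. Krt7 was 4.68, 4.88 and 4.77 for GFP, 4.88, 4.69 and 4.67 for FXRα1, 4.63, 4.56 and 4.51 for FXRα2, 4.70, 4.74 and 4.73 for FXRα3, and 4.63, 4.65 and 4.59 for FXRα4. The GFP arrays overlapped those of both isoforms with the insert and lay just above those of both without it. Its largest difference from GFP was −0.21 ± 0.097 with FXRα2 (limma adjusted p = 0.105, 95% interval −0.41 to −0.0086). That difference passed without the variance trend (−0.21) and with median centring (−0.43), and so did the difference between the forms without and with the insert (−0.14 and −0.29). Over all comparisons and alternatives Krt7 came to pass in 7 cases, FXRα4 against GFP with median centring (−0.365) among them. Its probe set ranked at 41.3% of all genes by mean brightness.

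**Figure D1:**
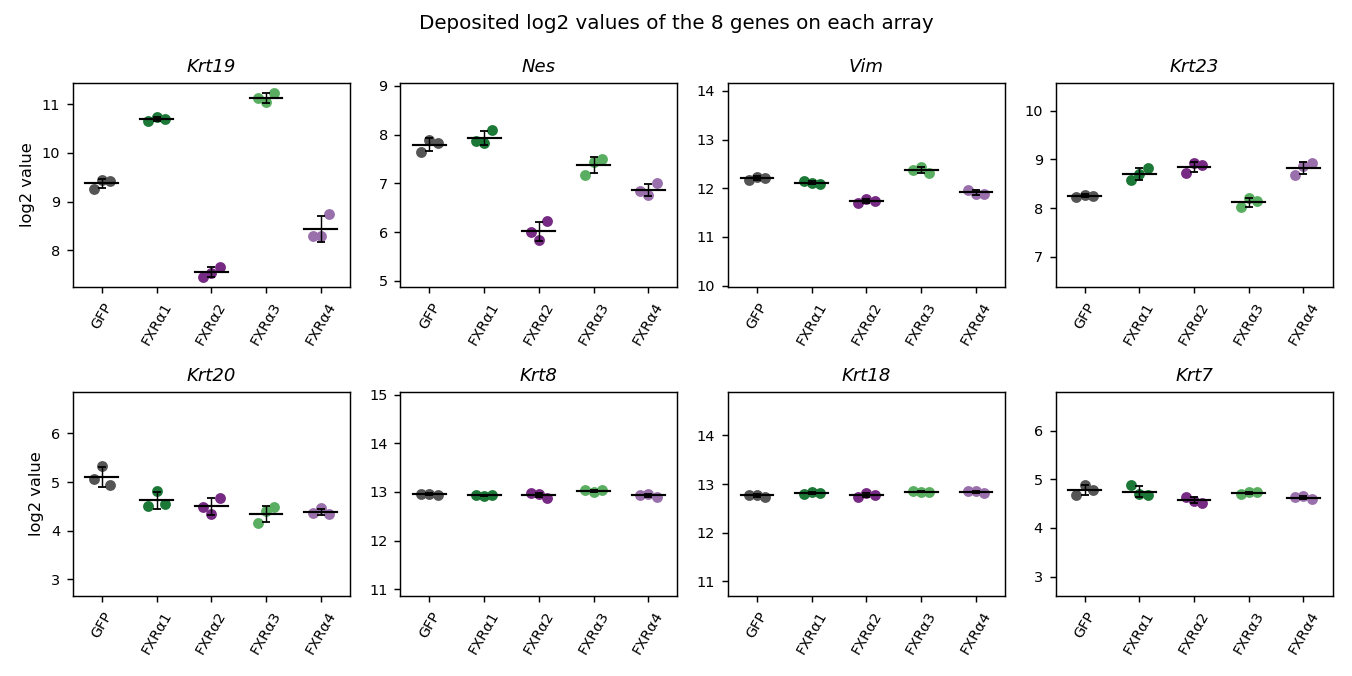
Deposited log2 value (vertical axis, the same span of 4.2 units in every panel) of each gene on each of the 15 arrays, by group (horizontal axis); points are arrays, lines are means and bars are SD (n = 3). Krt19 separates all 5 groups, Nes and Vim are lowest with FXRα2, and Krt8, Krt18 and Krt7 stay within a narrow band.

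The promoters of 7 of the 8 genes were read from RefSeq (GRCm38.p6), over the 250 bases before the annotated start. The letters AGGTCA, the core hexamer that FXR and many other nuclear receptors bind, were in the windows of Krt8, Krt18 and Krt20 and of no other of the 7, on either strand. They were in 14% of all 32851 promoter windows of that length. In Krt8 they lay 225 to 220 bases before the start, in Krt18 108 to 103 and in Krt20 23 to 18. Krt8 and Krt18 stayed within a narrow band and Krt20 fell in every isoform group, and whether the hexamer bears on either was not tested. The promoter of Krt19 was not available. The inverted repeat AGGTCANTGACCT, the classical element of FXR with its partner RXR, was in 2 of the 32851 windows, and the everted repeat TGACCTNNAGGTCA was in 4. Neither was in any of the 7, which says only that these letters are not in these windows. Both repeats contain the hexamer, so a match to either would also count as a match to it. The GC box GGGCGG matched 4 times in Krt7 and 2 times in Nes (32.7% of windows hold it), and the TATA box TATAAA was in Krt20 and Vim (12.4%). Capitals mark these matches, and each sequence runs 5′ to 3′ toward the start of the gene. In Krt20 the TATA box and the hexamer abut. Krt8 and Krt18 are shown as the hepatocyte pair, Krt20 as the gene lower with every isoform, and Nes and Vim as the members that are not keratins.
Krt8, chr15:102004343-102004592, minus strand: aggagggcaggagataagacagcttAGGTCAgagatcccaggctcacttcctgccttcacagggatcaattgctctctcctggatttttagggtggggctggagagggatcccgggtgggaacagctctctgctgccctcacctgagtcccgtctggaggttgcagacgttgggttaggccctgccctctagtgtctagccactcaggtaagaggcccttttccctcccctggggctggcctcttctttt
Krt18, chr15:102027966-102028215, plus strand: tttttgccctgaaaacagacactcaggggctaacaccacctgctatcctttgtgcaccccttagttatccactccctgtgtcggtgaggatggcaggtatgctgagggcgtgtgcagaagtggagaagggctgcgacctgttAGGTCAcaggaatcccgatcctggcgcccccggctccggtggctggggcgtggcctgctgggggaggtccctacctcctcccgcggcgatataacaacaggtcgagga
Krt20, chr11:99438154-99438403, minus strand: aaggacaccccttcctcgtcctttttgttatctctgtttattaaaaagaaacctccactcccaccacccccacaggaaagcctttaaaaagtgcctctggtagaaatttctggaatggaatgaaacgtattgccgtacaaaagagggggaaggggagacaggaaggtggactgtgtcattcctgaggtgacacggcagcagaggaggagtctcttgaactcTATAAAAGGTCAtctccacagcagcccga
Nes, chr3:87970843-87971092, plus strand: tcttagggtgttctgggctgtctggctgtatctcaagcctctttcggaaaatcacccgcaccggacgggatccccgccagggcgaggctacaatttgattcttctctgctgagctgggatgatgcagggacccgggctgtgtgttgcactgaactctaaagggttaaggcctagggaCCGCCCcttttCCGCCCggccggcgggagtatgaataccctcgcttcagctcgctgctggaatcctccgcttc
Vim, chr2:13574061-13574310, plus strand: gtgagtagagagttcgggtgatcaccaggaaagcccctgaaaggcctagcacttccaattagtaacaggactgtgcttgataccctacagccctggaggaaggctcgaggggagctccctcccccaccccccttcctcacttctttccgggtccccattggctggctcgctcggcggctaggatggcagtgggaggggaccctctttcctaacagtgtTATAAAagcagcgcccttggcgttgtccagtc

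Krt20 fell with all 4 isoforms. Its value was 5.06, 5.34 and 4.94 for GFP, 4.51, 4.82 and 4.55 for FXRα1, 4.48, 4.34 and 4.68 for FXRα2, 4.17, 4.40 and 4.49 for FXRα3, and 4.37, 4.46 and 4.35 for FXRα4. Every GFP array lay above every isoform array, and neighbouring isoform groups overlapped. The fall was by 0.49 ± 0.13 (log2, SE) for FXRα1, 0.62 ± 0.13 for FXRα2, 0.76 ± 0.13 for FXRα3 and 0.72 ± 0.13 for FXRα4 (limma adjusted p = 0.0102, 0.000426, 0.000135 and 6.91e-05). The FXRα1 call was lost without FXRα1 replicate 1 (−0.43) or GFP replicate 2 (−0.38). The insert made no detectable difference, at −0.13 between FXRα2 and FXRα1 (95% interval −0.39 to 0.13) and 0.039 between FXRα4 and FXRα3 (−0.22 to 0.30; limma adjusted p = 0.502 and 0.872). Krt20 is dim, at 40.1% of genes by brightness.

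Krt23, the neighbour of Krt20 among the protein-coding genes of chromosome 11, was higher with 3 of the 4 isoforms. Krt23 was 8.22, 8.28 and 8.26 with GFP, 8.58, 8.71 and 8.83 with FXRα1, 8.72, 8.92 and 8.89 with FXRα2, and 8.69, 8.86 and 8.93 with FXRα4. With FXRα3 it was 8.02, 8.20 and 8.14, just under the GFP arrays. The other isoform groups thus stood above GFP and overlapped each other, and FXRα3 stood apart from them.

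Krt23 rose by 0.46 ± 0.076 (log2, SE) with FXRα1, 0.59 ± 0.076 with FXRα2 and 0.58 ± 0.076 with FXRα4 (limma adjusted p = 0.000149, 1.35e-06 and 1.98e-06). With FXRα3 the difference was −0.13 ± 0.076 and did not pass (limma adjusted p = 0.351). FXRα4 exceeded FXRα3 by 0.71 (limma adjusted p = 1.7e-07), while FXRα2 and FXRα1 differed by 0.14 (limma adjusted p = 0.198). The insert effect itself differed between the N-termini by 0.57 ± 0.11 (limma adjusted p for the interaction = 0.000901).

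Nes was lowest with FXRα2. The value was 7.64, 7.90 and 7.83 for GFP, 7.86, 7.83 and 8.10 for FXRα1, 6.00, 5.83 and 6.22 for FXRα2, 7.18, 7.44 and 7.51 for FXRα3, and 6.85, 6.76 and 7.00 for FXRα4. FXRα1 overlapped GFP, and the other groups followed in the order FXRα3, FXRα4 and FXRα2 without overlap. The difference from GFP was 0.14 ± 0.11 (log2, SE) for FXRα1, −1.77 ± 0.11 for FXRα2, −0.41 ± 0.11 for FXRα3 and −0.92 ± 0.11 for FXRα4, so FXRα2 stood 3.42-fold and FXRα4 1.89-fold below the control. The step from the form with the insert to the form without it was −1.91 with the short N-terminus and −0.51 with the long one.

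Vim was bright in every group and moved by less. It was 12.17, 12.24 and 12.22 for GFP, 12.14, 12.11 and 12.08 for FXRα1, 11.70, 11.77 and 11.73 for FXRα2, 12.37, 12.43 and 12.31 for FXRα3, and 11.97, 11.89 and 11.89 for FXRα4. No group overlapped another, and the order ran from FXRα2 through FXRα4, FXRα1 and GFP to FXRα3. Vim and Krt19 differed in that order only in the places of GFP and FXRα1.

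Vim fell by 0.47 ± 0.037 (log2, SE) with FXRα2 and 0.29 ± 0.037 with FXRα4 (limma adjusted p = 7.89e-10 and 1.43e-06), or 1.39-fold and 1.22-fold. It rose by 0.17 ± 0.037 with FXRα3 (limma adjusted p = 0.00291), a call lost with median centring (0.13) and without the variance trend, and did not pass with FXRα1 (−0.10 ± 0.037, limma adjusted p = 0.0893). Between isoforms, FXRα2 was below FXRα1 by 0.37 and FXRα4 was below FXRα3 by 0.45 (limma adjusted p = 4.88e-08 and 2.89e-09). It was higher with the longer N-terminus by 0.27 with the insert and 0.18 without (limma adjusted p = 6.04e-05 and 0.000723). A fall in a bulk culture cannot tell fewer cells of a type from less RNA per cell.

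**Figure D2:**
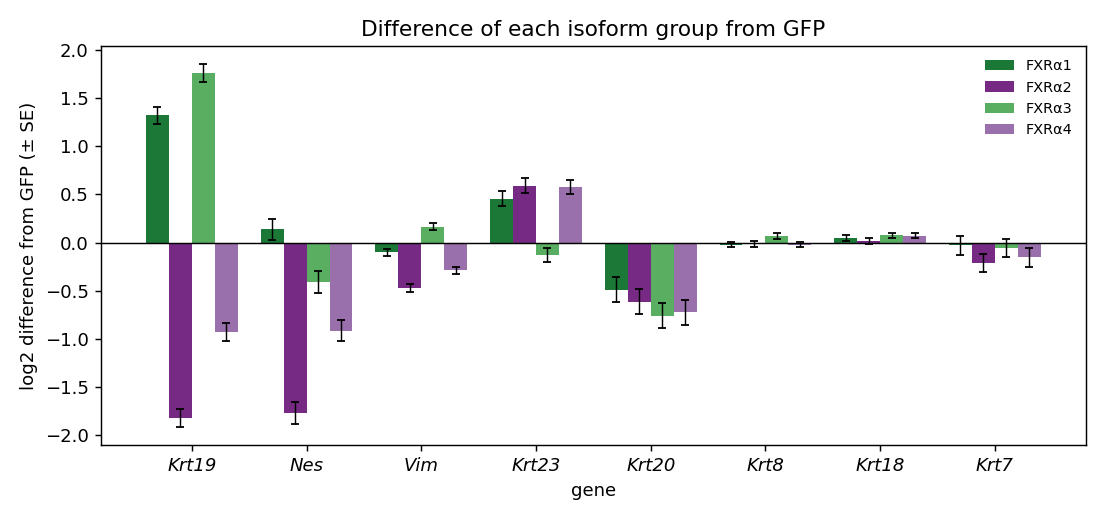
Difference of each isoform group from GFP (vertical axis, log2 from limma; bars show ± SE, 3 arrays per group) for the 8 genes (horizontal axis). Krt19 bars point up for FXRα1 and FXRα3 and down for FXRα2 and FXRα4, Krt20 bars all point down, and Krt8 and Krt18 bars lie near 0.

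Of the 6 genes that were tested (all but Krt19 and Nes), 2 passed with FXRα1 (Krt23 higher, Krt20 lower) where 12.4% of all genes passed (8.42% higher, 4% lower). With FXRα2, 3 passed (Krt23 higher, Krt20 and Vim lower; 34.3% of all genes, 17.5% higher and 16.7% lower), with FXRα3 2 (Vim higher, Krt20 lower; 14.1%, 7.45% higher and 6.62% lower) and with FXRα4 3 (Krt23 higher, Krt20 and Vim lower; 33.8%, 18% higher and 15.7% lower). The FXRα1 count was 1 without FXRα1 replicate 1 or GFP replicate 2. With median centring the counts were 1 higher and 5 lower with FXRα2, 1 and 4 with FXRα4, and 0 and 1 with FXRα3. Of all 18820 genes, 13162, 11787 and 3058 passed under that setting, with 14.4%, 16.3% and 39.9% of those upward. Between FXRα2 and FXRα1 only Vim passed (31.3% of all genes, 17.1% lower), and between FXRα4 and FXRα3 Krt23 rose and Vim and Krt8 fell (29.5%, 15.8% higher). Over both N-termini, the forms without the insert had Krt23 higher and Vim lower than those with it (38.2% of all genes, 18.3% higher and 19.9% lower). For the N-terminus, Vim rose and Krt23 fell from FXRα1 to FXRα3 (6.86% of all genes, 2.21% higher and 4.65% lower), and Vim rose from FXRα2 to FXRα4 (23.7%, 11.7% higher). Over both insert forms Vim was higher and Krt23 lower with the longer N-terminus (20.1% of all genes, 8.32% higher and 11.8% lower). The interaction of insert and N-terminus passed for Krt23 alone, upward (12.9% of all genes, 7.24% upward and 5.63% downward). The 6 genes were chosen with results known, so these counts are descriptions.

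The step without the insert can be set side by side for both N-termini. For Krt19 the step without the insert was −3.15 with the short N-terminus and −2.69 with the long one, a difference of 0.46 that became 0.31 without FXRα4 replicate 3. For Nes the same steps differed by 1.41, with the larger one at the short N-terminus. For Vim they differed by −0.082 ± 0.052 (log2, SE; limma adjusted p for the interaction = 0.377). For Krt23 the step was upward and larger with the long N-terminus.

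**Figure D3:**
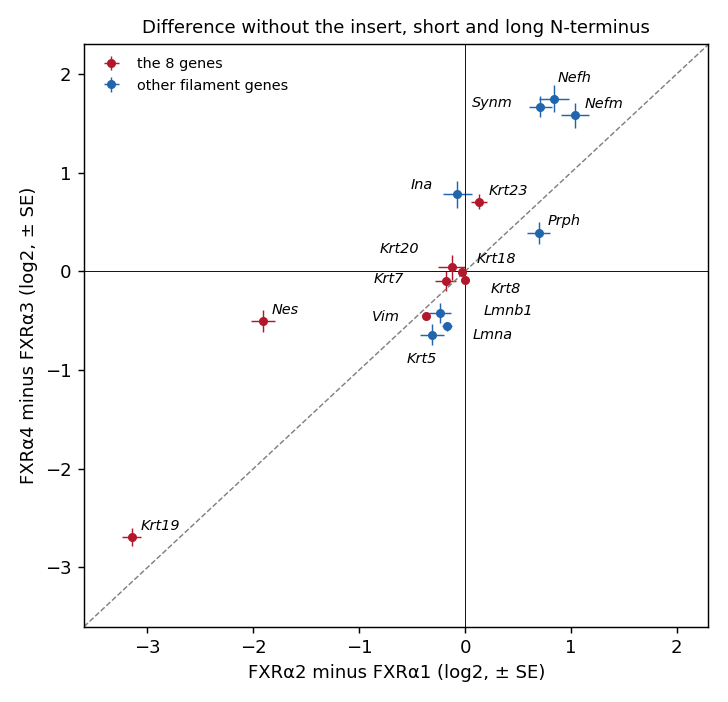
Step without the insert at the short N-terminus (horizontal axis, FXRα2 minus FXRα1) against that at the long N-terminus (vertical axis, FXRα4 minus FXRα3), in log2 ± SE; the dashed line marks equal steps. Krt19 lies near the line at −3.15 and −2.69, Nes lies off it at −1.91 and −0.51, and the neurofilament genes and Synm lie at the upper right.

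The other keratin genes gave few calls. Some of them were dim, among them Krt86 (group means 3.31 to 3.66) and Krt16 (3.05 to 3.41). Of 45 measured, 1 rose and 5 fell with FXRα2 (34.3% of all genes passed; median log2 −0.11 against −0.048 for all genes), and 0 rose and 5 fell with FXRα4 (33.8%; −0.09 against −0.027). With FXRα1, 1 rose and 1 fell (12.4%), and with FXRα3, 1 rose and 2 fell (14.1%). Single arrays moved these counts. With FXRα4, 1 fell without FXRα4 replicate 3 and 2 without GFP replicate 2, and with FXRα2, 1 rose and 2 fell without FXRα2 replicate 3. With FXRα3 none fell without FXRα3 replicate 3 or GFP replicate 2. With FXRα1 the fall, of Krt80, was lost without any 1 of FXRα1 replicates 1 and 3, FXRα2 replicate 1, FXRα3 replicates 1 and 2, FXRα4 replicate 2 and GFP replicates 1 and 2, and 3 fell without FXRα1 replicate 2. With median centring 31 fell with FXRα2 and 21 with FXRα4. That setting passed 13162 and 11787 of all 18820 genes, with 14.4% and 16.3% of those upward. The riser was Krt5, the basal keratin of stratified epithelia. Krt5 was 6.19, 6.23 and 6.42 for GFP, 6.89, 6.95 and 7.27 for FXRα1, 6.57, 6.76 and 6.85 for FXRα2, 6.99, 6.99 and 7.02 for FXRα3, and 6.23, 6.46 and 6.39 for FXRα4. It rose by 0.76 ± 0.11 (log2, SE) with FXRα1, 0.45 ± 0.11 with FXRα2 and 0.72 ± 0.11 with FXRα3 (limma adjusted p = 1.85e-05, 0.00178 and 3.65e-05), and FXRα4 overlapped GFP (0.080, limma adjusted p = 0.635).

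FXRα4 stood below FXRα3 in Krt5 by 0.64 (limma adjusted p = 4.91e-05). FXRα2 stood below FXRα1 by 0.31 (limma adjusted p = 0.0263), a call lost without FXRα1 replicate 3 (−0.20) or FXRα2 replicate 1 (−0.24). Among those that fell with FXRα2 were Krt24 by 0.69 ± 0.11, Krt17 by 0.53 ± 0.11 and Krt80 by 0.44 ± 0.13 (limma adjusted p = 3.47e-05, 0.000826 and 0.0096). The Krt80 call was lost without FXRα2 replicate 3 (−0.32).

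Among the remaining filament genes calls went both ways. Of 15 other intermediate filament genes measured of 16 listed, 4 rose and 3 fell with FXRα2 and 6 rose and 3 fell with FXRα4, against 2 and 1 with FXRα1 and with FXRα3 (34.3%, 33.8%, 12.4% and 14.1% of all genes passed). The FXRα1 counts were 0 and 1 without FXRα1 replicate 3, and 4 and 1 without FXRα1 replicate 2. The median was 0.08 with FXRα2 and 0.29 with FXRα4, against −0.048 and −0.027 for all genes. Synm, which encodes synemin, a partner of vimentin and desmin filaments, was 4.68, 4.89 and 4.71 with GFP, 5.79, 5.92 and 5.80 with FXRα2 and 6.94, 6.99 and 7.03 with FXRα4. It was 5.18, 5.04 and 5.16 with FXRα1 and 5.19, 5.24 and 5.52 with FXRα3. Every FXRα4 array lay above every other array. Synm rose by 2.22 ± 0.11 (log2, SE) with FXRα4, 1.07 ± 0.11 with FXRα2 and 0.56 ± 0.11 with FXRα3 (limma adjusted p = 3.96e-13, 2.72e-08 and 0.000595). The rise of 0.36 with FXRα1 (limma adjusted p = 0.0233) was lost without FXRα1 replicate 1 (0.34) or 3 (0.34), or GFP replicate 1 (0.33) or 3 (0.34).

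Nefm and Nefh encode the medium and heavy neurofilament chains, known from neurons. Nefm was 4.54, 4.66 and 4.66 with GFP, 5.49, 5.62 and 5.57 with FXRα2 and 6.12, 6.65 and 5.99 with FXRα4. With FXRα1 (4.46, 4.50 and 4.59) and FXRα3 (4.59, 4.66 and 4.75) it overlapped GFP. Both isoforms without the insert stood apart from the rest. Nefm rose by 0.94 ± 0.13 with FXRα2 and 1.63 ± 0.13 with FXRα4 (limma adjusted p = 4.24e-06 and 1.17e-09), and Nefh by 0.68 ± 0.14 and 1.70 ± 0.14 (limma adjusted p = 0.000478 and 2.07e-09). Ina, which encodes internexin, rose by 1.09 ± 0.14 with FXRα4 (limma adjusted p = 1.84e-06) and not with FXRα2 (0.34, limma adjusted p = 0.0703). Prph, the peripherin gene of peripheral nerve, rose by 0.73 ± 0.11 with FXRα2 and 0.43 ± 0.11 with FXRα4 (limma adjusted p = 1.71e-05 and 0.00429), and the FXRα4 call was lost with median centring (0.22).

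FXRα4 exceeded FXRα2 in Synm by 1.15, in Nefh by 1.02 and in Nefm by 0.69 (limma adjusted p = 3.37e-08, 9.74e-06 and 0.000335). Lmna, the gene of the nuclear lamins A and C, went down instead. Lmna was 9.74, 9.78 and 9.79 with GFP, 9.31, 9.30 and 9.36 with FXRα2 and 9.09, 9.09 and 9.10 with FXRα4. It fell by 0.45 ± 0.044 with FXRα2, 0.68 ± 0.044 with FXRα4 and 0.28 ± 0.044 with FXRα1 (limma adjusted p = 3.06e-08, 4.79e-11 and 9.49e-05), and FXRα3 did not pass (−0.12, limma adjusted p = 0.0789).

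**Figure D4:**
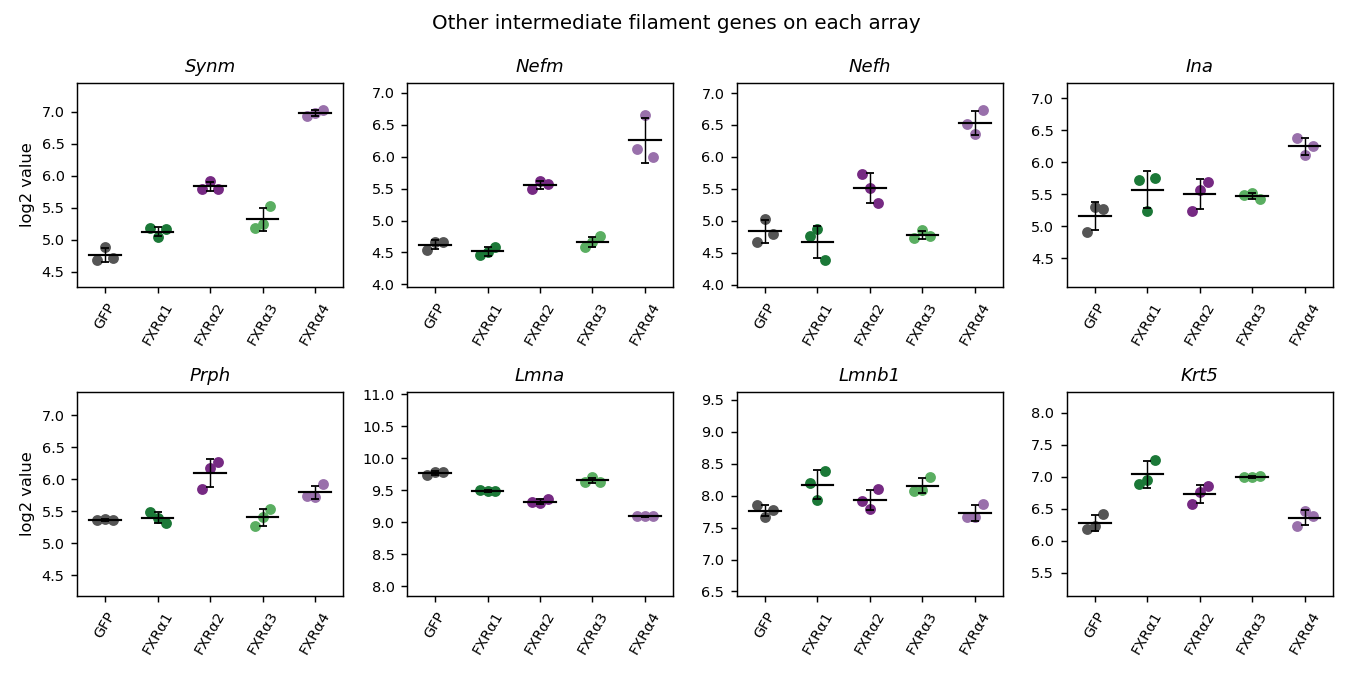
Deposited log2 value (vertical axis, the same span of 3.2 units in every panel) of 8 further filament genes on each array by group (horizontal axis); points are arrays, lines are means and bars are SD (n = 3). Synm, Nefm and Nefh are highest with FXRα4 and next highest with FXRα2, Lmna is lowest with FXRα4, and Krt5 is near GFP with FXRα4.

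Counted together, 5 of the 60 keratin and filament genes beyond the 8 passed for FXRα1, 13 for FXRα2, 6 for FXRα3 and 14 for FXRα4. Of all genes 12.4%, 34.3%, 14.1% and 33.8% passed, and the difference from these shares was not tested. The FXRα1 count was 3 without FXRα1 replicate 1, 9 without FXRα1 replicate 2, 2 without FXRα1 replicate 3 and 3 without GFP replicate 2. The FXRα3 count was 3 without FXRα3 replicate 3 or GFP replicate 2. Between FXRα2 and FXRα1, 5 rose and 8 fell, where 31.3% of all genes passed. Between FXRα4 and FXRα3, 6 rose and 4 fell, where 29.5% of all genes passed. The difference from these shares was not tested either. With median centring, 40 passed with FXRα2 and 30 with FXRα4, most of them downward (35 and 26). Of all 18820 genes, 13162 and 11787 passed under that setting, with 14.4% and 16.3% of those upward.

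Desmosomes and plakins anchor keratin filaments at the cell border. Of 17 such genes measured of 18 listed, 9 rose and 3 fell with FXRα2, 4 and 4 with FXRα4, 3 and 3 with FXRα1, and 1 and 6 with FXRα3 (medians 0.13, 0.03, −0.11 and −0.09). The shares of all genes that passed were 34.3%, 33.8%, 12.4% and 14.1% in the same order. The FXRα4 counts were 1 and 4 without FXRα4 replicate 3 or GFP replicate 3. Jup, which encodes plakoglobin, rose by 0.70 ± 0.048 (log2, SE) with FXRα2 (limma adjusted p = 8.97e-11) and stood at 0.057 with FXRα4 (limma adjusted p = 0.417), turning to −0.15 there with median centring. The plakophilin gene Pkp1 rose by 0.68 ± 0.11 with FXRα2 and 0.59 ± 0.11 with FXRα4 (limma adjusted p = 2.35e-05 and 0.000112).

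Other linker genes moved in both directions. Itga6, the integrin chain of hemidesmosomes, rose by 0.79 ± 0.072 with FXRα1, 0.51 ± 0.072 with FXRα2 and 0.66 ± 0.072 with FXRα3 (limma adjusted p = 5.61e-08, 5.77e-06 and 7.49e-07). Plec, the gene of the cross-linker plectin, rose by 0.36 with FXRα1, 0.47 with FXRα2 and 0.28 with FXRα4 (limma adjusted p = 0.00494, 0.000106 and 0.0102). Ppl, the periplakin gene, fell by 0.48 with FXRα3 and rose by 0.45 with FXRα2 (limma adjusted p = 0.000595 and 0.000398). Eppk1, the gene of epiplakin, which binds keratins in hepatocytes, fell with all 4 isoforms, by 0.44 ± 0.090 for FXRα1, 0.77 ± 0.090 for FXRα2, 0.79 ± 0.090 for FXRα3 and 1.07 ± 0.090 for FXRα4 (limma adjusted p = 0.00159, 3.48e-07, 1.29e-06 and 2.53e-09). The desmocollin gene Dsc2 fell by 0.94 ± 0.058 with FXRα3, 0.40 ± 0.058 with FXRα4 and 0.24 ± 0.058 with FXRα1 (limma adjusted p = 1.25e-10, 6.54e-06 and 0.00695). Dsc2 rose by 0.20 ± 0.058 with FXRα2 (limma adjusted p = 0.00877), which median centring turned to −0.021. Of 5 genes of keratin aggregates and stress measured of 10 listed, 1 rose and 1 fell with FXRα1 and with FXRα3. With FXRα2 1 rose and 0 fell, and with FXRα4 0 rose and 2 fell. The shares of all genes that passed were 12.4% for FXRα1, 34.3% for FXRα2, 14.1% for FXRα3 and 33.8% for FXRα4. Gadd45b fell by 0.94 with FXRα3 (limma adjusted p = 2.92e-08). The FXRα4 count of 2 was 1 without GFP replicate 2 or 3.

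Genes of the epithelial to mesenchymal transition moved in both directions. Of 14, 5 rose and 6 fell with FXRα2, 5 and 4 with FXRα4, 2 and 4 with FXRα1, and 1 and 2 with FXRα3 (0 and 0 without FXRα3 replicate 1). The median was −0.11 with FXRα2 and −0.08 with FXRα4. Of all genes 17.5% rose and 16.7% fell with FXRα2, 18% and 15.7% with FXRα4, 8.42% and 4% with FXRα1, and 7.45% and 6.62% with FXRα3. Beside the lower Vim, the E-cadherin gene Cdh1 rose by 0.71 ± 0.047 with FXRα2 and 0.75 ± 0.047 with FXRα4 (limma adjusted p = 4.24e-11 and 2.39e-11). Twist1, a transcription factor of mesenchymal cells, also rose, by 1.15 ± 0.14 and 0.97 ± 0.14 (limma adjusted p = 8.51e-07 and 9.12e-06). Other listed genes had lower means than GFP. Snai2 averaged 9.11 with GFP, 8.38 with FXRα2 and 9.03 with FXRα4. S100a6 averaged 9.2, 8.79 and 8.87 in the same groups, and Fn1 12.73, 12.49 and 12.55.

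The biliary genes listed beside Krt19 also moved in both directions. Of 16 biliary, Notch and YAP genes measured of 19 listed, 5 rose and 6 fell with FXRα2, 7 and 7 with FXRα4, 3 and 6 with FXRα1, and 4 and 5 with FXRα3 (medians −0.04, −0.14, 0.1 and −0.01). Of all genes 34.3%, 33.8%, 12.4% and 14.1% passed. Sox9, the transcription factor of bile duct cells, rose with every isoform, by 0.45 ± 0.067 (log2, SE) for FXRα1, 1.05 ± 0.067 for FXRα2, 0.63 ± 0.067 for FXRα3 and 1.07 ± 0.067 for FXRα4 (limma adjusted p from 2.9e-11 to 4.44e-05). Hey2, a Notch target, rose by 2.01 ± 0.16 with FXRα2 and 1.97 ± 0.16 with FXRα4 (limma adjusted p = 1.58e-09 and 2.46e-09). The YAP target Ankrd1 fell by 0.64 to 0.74 in all 4 groups. Epcam, an adhesion gene of bile duct cells, rose by 4.95 with FXRα2, 4.68 with FXRα4, 0.68 with FXRα1 and 0.74 with FXRα3 (limma adjusted p from 2.68e-19 to 2.9e-05), so it was highest where Krt19 was lowest.

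Markers of other liver cells were measured beside these results. The summed level of 13 cholangiocyte markers other than Krt19 and Krt7 was 10.84 to 10.99 (log2 of summed intensities, range over arrays) for GFP, 10.99 to 11.05 for FXRα1, 11.60 to 11.75 for FXRα2, 11.26 to 11.41 for FXRα3 and 11.65 to 11.74 for FXRα4, and 6 of the 13 averaged below the median gene. Among the defining ones, Cftr averaged 2.99 to 3.05 and Sctr 3.74 to 3.99 over the groups, both at the dim end. The FXRα1 range touched that of GFP and the others lay above it, whereas Krt19 was lower than GFP with 2 of the 4 isoforms. The sum is weighted to its bright members, Cldn4 (group means 9.99 to 10.58) and, with FXRα2 and FXRα4, Epcam. The median marker differed from GFP by −0.01 with FXRα2 and with FXRα4, 0.02 with FXRα1 and 0.07 with FXRα3. With FXRα2, 5 of the 13 rose and 2 fell, Bicc1 by 0.28 and Slc4a2 by 0.31 (limma adjusted p = 0.0132 and 0.000413). With FXRα4, 4 rose and 1 fell, Slc4a2 by 0.21 (limma adjusted p = 0.0104). With FXRα1, 3 rose and 0 fell, and with FXRα3, 4 rose and 1 fell, Bicc1 by 0.325 (limma adjusted p = 0.0104). Of all genes 17.5% rose and 16.7% fell with FXRα2, and 18% and 15.7% with FXRα4. With FXRα1 8.42% rose and 4% fell, and with FXRα3 7.45% and 6.62%.

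For 8 mesothelial markers, all below the median gene, the sum was 6.84 to 6.88 for GFP, 6.69 to 6.85 for FXRα1, 7.21 to 7.33 for FXRα2, 6.73 to 6.86 for FXRα3 and 7.05 to 7.11 for FXRα4. The markers did not rise together. With FXRα2, 2 of the 8 rose, Wt1 by 1.56 and Msln by 0.36 (limma adjusted p = 1.14e-09 and 0.00417). With FXRα4 1 rose, Wt1 by 0.97 (limma adjusted p = 1.59e-06). None fell with either, and 17.5% and 18% of all genes rose. For 13 stellate cell and fibroblast markers other than Vim and Nes, 12 of them below the median gene, the sum was 8.52 to 8.58 for GFP, 8.45 to 8.46 for FXRα1, 8.53 to 8.61 for FXRα2, 8.48 to 8.51 for FXRα3 and 8.64 to 8.77 for FXRα4. Single markers went both ways. The reelin gene Reln rose by 0.55 with FXRα2 and 0.97 with FXRα4 (limma adjusted p = 0.000401 and 3.04e-07). With FXRα2, Tagln fell by 0.29 and Lox by 0.33 (limma adjusted p = 0.0412 and 0.0141). With FXRα1, Tagln fell by 0.38 (limma adjusted p = 0.0211). With FXRα4, Tagln fell by 0.29, Lox by 0.37 and the smooth muscle actin gene Acta2 by 0.34 (limma adjusted p = 0.0467, 0.00615 and 0.0354). The collagen gene Col1a1 averaged 5.11 to 5.19 over the groups and the desmin gene Des at most 4.12.

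The sums for Kupffer cells (8.85 to 9.38 over all arrays), sinusoidal endothelial cells (8.11 to 8.45) and lymphocytes and neutrophils (6.66 to 6.89) held 8 of 9, 9 of 10 and 8 of 8 markers below the median gene. The 9 measured hepatocyte markers outside Krt8 and Krt18 summed to 14.53 to 14.60 for GFP, 14.56 to 14.67 for FXRα1, 14.74 to 14.81 for FXRα2, 14.66 to 14.78 for FXRα3 and 14.73 to 14.76 for FXRα4, with Alb at 13.07 to 13.14. The part of these marker differences in the results for Krt19, Vim and Nes was not tested.

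The genes most like Krt19 were sought among 1101 genes whose group means spanned at least 1 log2 unit, by Pearson's r over the 15 arrays, which fall into 5 groups, so r mostly describes the order of group means. The highest were Kitl (r = 0.982), the ligand of the receptor Kit, Dcbld2 (0.978), Lor (0.970), which encodes the cornified envelope protein loricrin, Lyst (0.966), the cystine transporter gene Slc7a11 (0.966) and the semaphorin gene Sema3e (0.963). Kitl averaged 7.57 for GFP, 7.95 for FXRα1, 7.01 for FXRα2, 8.30 for FXRα3 and 7.24 for FXRα4, the same order as Krt19 over a smaller span. The lowest were Herpud1 (−0.977), the lysosomal glucosidase gene Gaa (−0.973), Socs2 (−0.956) and Steap4 (−0.955).

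For Nes the highest were Jazf1 (r = 0.971), the lipin gene Lpin1 (0.959), Acot6 (0.959), Zfp948 (0.956), Galnt7 (0.953) and the actin regulator gene Enah (0.946). The lowest were the acute phase genes Orm2 (−0.977) and Orm3 (−0.960), the sphingosine kinase gene Sphk1 (−0.960) and Inhbe (−0.956). Orm2 averaged 9.14 with GFP and 11.25 with FXRα2, where Nes was lowest. Between themselves, Krt19 had r = 0.79 with Nes and 0.88 with Vim over the 15 arrays.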

How the data were processed

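Total RNA was hybridised to 15 Affymetrix mouse whole-transcript arrays, 3 per group. The deposited values are log2 probe set values that the authors had normalized; the log base was inferred from their range, 1.93 to 13.85. Affymetrix Expression Console 1.1 and PLIER are named in the submitters' processing notes, and how background was corrected and arrays normalized is not given in the sources used. Of 35556 probe sets, 21218 had 1 gene symbol in the array annotation, and the brightest per gene was kept with no filter (18820 genes). Arrays were grouped by their titles. limma 3.58.1 (R 4.3.3), with a mean-variance trend, fitted 5 group means to all genes over all arrays. Tests were two-sided, and p-values were Benjamini-Hochberg adjusted over all genes within each of 11 comparisons. A gene is said to have risen or fallen at an adjusted p under 0.05. The fit was tested on simulated data. The members, the lists and the genes named were chosen with earlier results of these data known. From each list up to 8 genes with the smallest p could be named, and not all were. Epcam, Cftr, Sctr, Col1a1, Des, Alb, Abcb11 and Nr0b2 were named as markers, and Cldn4, Bicc1, Slc4a2, Wt1, Msln, Reln, Tagln, Lox and Acta2 after their values were seen.

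Samples were not paired by replicate number: over pairs of arrays with one number, deviations from the group means correlated from −0.21 to 0.43 (median 0.16), against −0.42 to 0.31 with different numbers. The alternatives were other variance settings, weighted arrays, a fit of the compared groups alone, 2 filters on dim genes, 3 scalings, a test of every probe set, a constant of 16 added on the linear scale, the replicate block and each array left out. Applying them to the counts of single lists other than the 8 genes and the whole filament family was chosen after seeing the data. With 3 arrays per group, their number sets the precision. Figures were drawn with matplotlib 3.10.9.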

Additional observations from a re-analysis of the deposited data

Results flagged for a closer look

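Of 49 tested genes that the report's naming rule covers, 14 had a step without the insert that differed between the short and the long N-terminus by the interaction test in limma (12.9% of all genes passed it). The rule took genes with small p-values in comparisons that share these arrays, so the number is a description. The step was larger in size with the long N-terminus in 8 and with the short one in 6.

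The step was larger in size with the long N-terminus in Krt23 and the filament genes Synm, Nefh, Ina and Lmna. For Krt23 it was 0.136 with the short and 0.705 with the long N-terminus, a difference of 0.569 (limma adjusted p = 0.000901). The step of Synm was 0.71 with the short and 1.67 with the long N-terminus, a difference of 0.955 (limma adjusted p = 0.000146). In Nefh it came to 0.841 with the short and 1.75 with the long N-terminus, a difference of 0.913 (limma adjusted p = 0.00323). Ina had a step of −0.0722 with the short and 0.779 with the long N-terminus, a difference of 0.851 (limma adjusted p = 0.00636). Lmna moved by −0.169 with the short and −0.557 with the long N-terminus, a difference of −0.388 (limma adjusted p = 0.000193). The listed genes Ppl, Klf5 and Jag1 were alike in this. Ppl had 0.185 with the short and 0.763 with the long N-terminus, a difference of 0.578 (limma adjusted p = 0.00388). For Klf5 the step was 0.0678 with the short and 0.728 with the long N-terminus, a difference of 0.66 (limma adjusted p = 0.000367). In Jag1 it was −0.0992 with the short and −1.25 with the long N-terminus, a difference of −1.15 (limma adjusted p = 9.97e-06).

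The step was larger in size with the short N-terminus in 6 listed genes, the plakoglobin gene Jup and Tgfb1 among them. For Jup it was 0.825 with the short and 0.202 with the long N-terminus, a difference of −0.623 (limma adjusted p = 2.18e-06). The step of Tgfb1 was 1.35 with the short and 0.534 with the long N-terminus, a difference of −0.814 (limma adjusted p = 9.72e-06). In Snai2 it came to −0.643 with the short and −0.194 with the long N-terminus, a difference of 0.449 (limma adjusted p = 0.000649). Snai1 had a step of −0.643 with the short and 0.19 with the long N-terminus, a difference of 0.833 (limma adjusted p = 0.000804). S100a6 moved by 0.351 with the short and −0.0487 with the long N-terminus, a difference of −0.4 (limma adjusted p = 0.00852). For Onecut2 it was −0.396 with the short and −0.146 with the long N-terminus, a difference of 0.25 (limma adjusted p = 0.0104). The step of Nes, described without a test, was also larger with the short N-terminus.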

How the results depend on the processing

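Median centring moved the most values. With it the number of tested genes that passed was 6 for FXRα2, 1 for FXRα3 and 5 for FXRα4 against GFP. It was 2 between FXRα2 and FXRα1, 5 between FXRα4 and FXRα3 and 5 between the forms without and with the insert (2 otherwise). Of all 18820 genes, 8038, 9200 and 12326 passed in these comparisons under median centring. Median centring gave 40 further keratin and filament genes for FXRα2 and 30 for FXRα4, where 13162 and 11787 of all genes passed. It turned Krt18 with FXRα2 from 0.014 to −0.207, Jup with FXRα4 to −0.154, Dsc2 with FXRα2 to −0.0213, Itga6 with FXRα4 to −0.0179, and Cdh2 to −0.0572 with FXRα2 and −0.0318 for FXRα4 against FXRα3. Without the genes dimmer than the median gene 1 tested gene passed for FXRα1 and 1 for FXRα3, and further filament genes that passed numbered 4 with FXRα2, 3 with FXRα4, 4 between FXRα2 and FXRα1 and 4 between FXRα4 and FXRα3, since fewer were tested. Without the variance trend 1 tested gene passed for FXRα3. With every probe set tested 3, 3 and 8 further genes passed for FXRα1, FXRα3 and FXRα2 against FXRα1.

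Leaving out 1 array at a time gave 1 to 2 tested genes for FXRα1. It gave 2 to 9 further genes for FXRα1 and 3 to 7 for FXRα3. With the replicate number as a block the further genes for FXRα1 numbered 9, the genes called overall rose from 2336 to 3072 for FXRα1 and from 1291 to 2117 for FXRα3 against FXRα1, and the counts of tested genes stayed within 1.5 times of those given. No gene of the 8 had a dimmer probe set, so that alternative gave no value. Krt19 and Nes kept the sign of their differences in each of the 11 comparisons under the alternatives run. Dim signals limit Krt7 and Krt20, and whether the bright signals of Krt8, Krt18 and Vim were saturated was not tested. Krt80, Synm, Nefm, Nefh, Ina, Prph, Pkp1, Twist1, Hey2, Abcb11 and Nr0b2 were also dim with GFP, at group means of 4.06 to 5.36. The median gene of an array lay at 5.605 or higher.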
